A study of Mus musculus with 12 samples.

Results

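The transcriptional response of WT osteoclast precursors to RANKL was measured by RNA-seq, as 4 of the 12 libraries of the series: 2 replicates of WT basal cells and 2 replicates of WT RANKL cells. The members were all genes that reached a level of 1 CPM, a read count scaled to the reads of its library, in 2 or more of these 4 libraries, which left 11487 of the 24421 genes listed. WT cells were bone marrow macrophages (BMMs) of C57BL/6 mice with the genotype Mir182+/+ LysMcre(+), so the basal and the RANKL cells both carried Cre recombinase under the lysozyme M promoter and an intact Mir182. BMMs had been grown from flushed femur and tibia marrow with M-CSF for 3 days, and the stimulated cells received RANKL for 5 days. By the study's own account the basal cells were kept for the same 5 days without RANKL, a time that the labels of the basal libraries leave out. Mir182ΔM/ΔM cells (Mir182flox/flox LysMcre(+), same strain, same treatment, 4 libraries) were used only to ask whether the response differed between genotypes, and the LysMcre(+) Control and LSL-Mir182 LysMcre(+) Mir182mTg basal libraries only for the levels of a few genes.

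RANKL is a cytokine of the TNF family that binds its receptor RANK on myeloid precursors and signals through TRAF adaptors, NF-kB and AP-1. With calcium signals from receptors that carry an immunoreceptor tyrosine-based activation motif (ITAM), this leads to the self-amplifying factor NFATc1. The precursors then leave the macrophage programme, fuse into multinucleated cells, attach to bone through integrins and podosomes, and secrete acid, cathepsin K and metalloproteinases into a sealed space where bone is resorbed.

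The 4 libraries held 24951280 to 32708389 reads on genes, so that 3 reads, below which no level was read, corresponded to 0.0917 to 0.120 CPM. Macrophage and osteoclast genes, described below, identified the basal and the stimulated cells as labelled. Markers of other lineages were low: the 11 T and NK cell markers listed in the files summed to 5.59 and 5.09 CPM in basal and 12.7 and 13.0 CPM in RANKL cells, the 7 B cell markers to 2.72 to 3.71 CPM, and the 11 neutrophil markers to 132 and 126 CPM in basal and 37.8 and 34.8 CPM in RANKL cells. All 9 tested neutrophil markers fell, whereas 3 of 5 tested stromal markers rose, and the 11 stromal markers summed to 11.1 and 23.3 CPM before and 34.0 and 51.9 CPM after RANKL. The precursor of ribosomal RNA, Rn45s, took 0.118% of CPM in basal and 0.101% in RANKL replicate 1. In replicate 2 it took 2.13% and 1.52%. The difference between replicate numbers was thus larger than that between conditions, though Rn45s was lower after RANKL in both pairs. The libraries are bulk RNA, so fewer cells of a type and less RNA per cell cannot be told apart.

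A few of the genes that can vary with the origin of a mouse set the WT RANKL libraries apart from the WT basal libraries. Lyz2 encodes lysozyme M and is the locus into which the LysMcre allele is inserted. It was at 44.0 and 39.8 CPM in WT basal cells and at 4117 and 4288 CPM in WT RANKL cells, while it stayed between 22.5 and 34.6 CPM in the 4 Mir182ΔM/ΔM libraries, RANKL included, and was between 5783 and 7062 CPM in the 4 Control and Mir182mTg libraries. Ifi202b, an interferon-inducible gene whose expression is known to differ between mouse strains, was at 112 and 93.4 CPM in WT basal cells and at 1.12 and 0.972 CPM in WT RANKL cells. It was between 82.1 and 152 CPM in Mir182ΔM/ΔM cells with and without RANKL and at most 0.0908 CPM in Control and Mir182mTg cells. Ifi44l read 19.8 and 25.0 CPM in WT basal cells, 0 in both WT RANKL libraries and at most 0.433 CPM in the other 8. For Ifi44l it was thus the WT basal libraries that stood apart from all others, those of Mir182ΔM/ΔM cells included. In these 3 genes the WT RANKL libraries were nearer to the Control and Mir182mTg libraries than to the WT basal libraries. Gbp2b and Trim12a did not set them apart. Gbp2b was at 7.80 and 4.73 CPM in WT basal and at 5.91 and 4.61 CPM in WT RANKL cells. Trim12a was at 14.3 and 12.5 and at 10.9 and 8.57 CPM. In Mir182ΔM/ΔM cells they were at most 0.197 and 0.230 CPM. Wdfy1 went from 54.9 and 56.7 to 34.5 and 34.0 CPM in WT cells. In Mir182ΔM/ΔM cells it went from 59.3 and 60.4 to 90.9 and 96.2 CPM. Nlrp1b fell from 59.6 and 60.2 to 24.1 and 27.1 CPM in WT cells. It was between 35.8 and 48.3 CPM in Mir182ΔM/ΔM cells. Nnt was lower after RANKL in both genotypes. Reads of Lyz2 may include reads of its near-identical copy Lyz1, and those of Ifi202b reads of its gene family. The labels give neither the number of Cre copies nor the individual mice, so that a difference between the mice and the effect of RANKL cannot be told apart for these genes, and the part of mouse origin in the other genes was not tested.

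**Figure D1:**
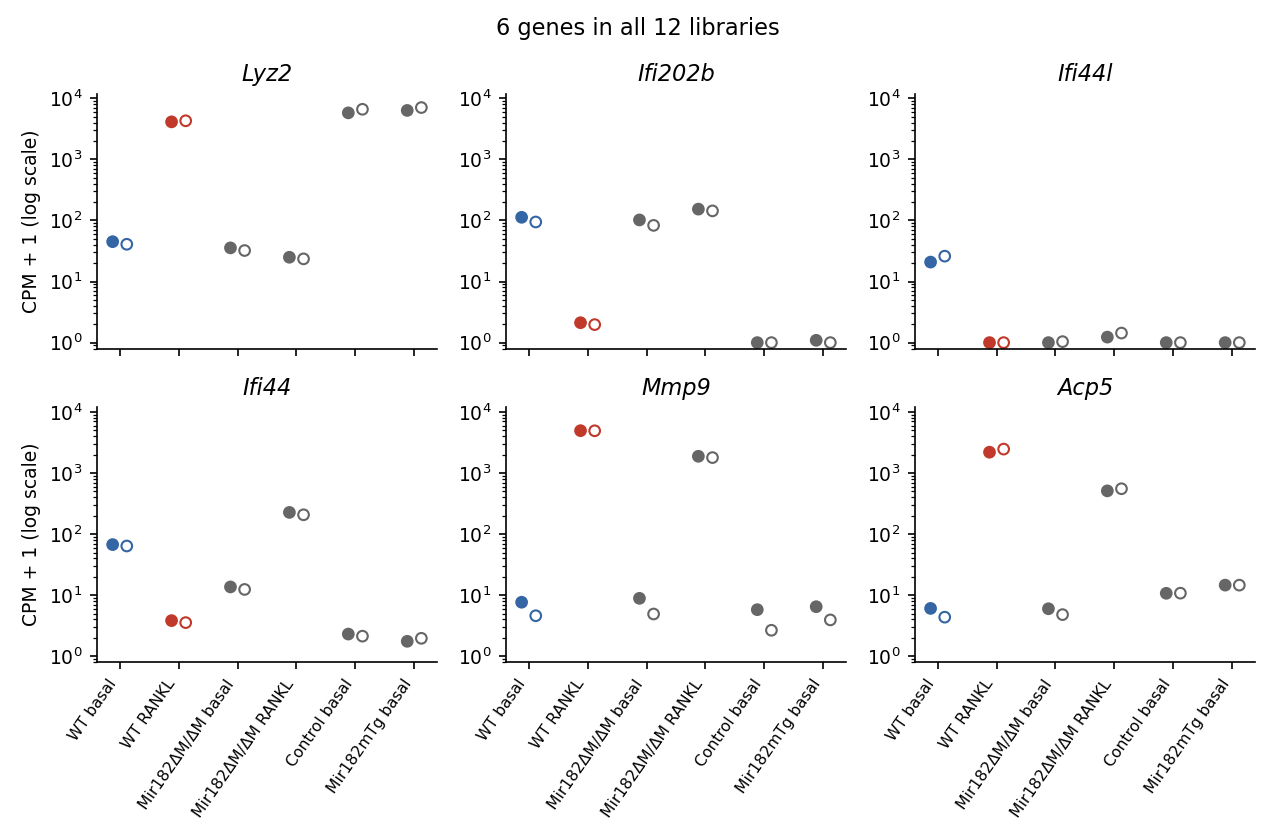
CPM plus 1 on a log scale of 6 genes in all 12 libraries, with replicate 1 as a filled and replicate 2 as an open circle, WT basal in blue, WT RANKL in red and the other 4 conditions in grey. Lyz2, Ifi202b and Ifi44l in WT RANKL cells lay near the Control and Mir182mTg values, whereas Mmp9 and Acp5 were high in the RANKL cells of both genotypes and low in all basal cells. For Ifi44l only the WT basal values were high.

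Each gene was compared between WT RANKL and WT basal cells with limma on log2(CPM + 1), with the replicate number as a batch term. A gene was said to have risen or fallen when its Benjamini-Hochberg adjusted p was under 0.05 and its change was at least 2-fold. On this scale the change of genes with few reads is understated. RANKL raised 1437 genes, 12.5% of those tested, and lowered 811 genes, 7.06%. By the adjusted p alone, 6237 genes (54.3%) were higher and 3415 (29.7%) lower. All 2248 genes past both thresholds changed in the same direction in both replicate pairs. In 2247 of them the 2 basal and the 2 RANKL libraries did not overlap, against 79.7% of all genes tested. Both counts are largely fixed by the choice of these genes on the same 4 libraries and are no separate support for the calls. At least 8-fold changes were seen for 162 risen and 36 fallen genes, and 368 of the risen genes were under 1 CPM in both basal libraries. The risen genes together took 4.74% and 4.71% of all CPM in basal cells and 15.8% and 15.9% after RANKL, while the fallen genes went from 22.1% in each basal library to 6.79% and 6.84%.

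The split between rises and falls depended on the scaling. The median log2 change over all genes tested was 0.19, and it became 0.02 when CPM were divided by TMM factors, a shift by -0.18. Of the 2-fold calls, 63.9% were rises on CPM, 51.0% with TMM factors and 46.0% after quantile normalization. The changes below are on the CPM scale, to be read against the median of 0.19 over all genes, and directions that turned with the scaling are named where they occur. Counts of list members past 2-fold are to be read against the 12.5% risen and 7.06% fallen of all genes. The p-values and SE rest on a spread taken mostly from a trend over all genes (32.5 prior against 1 residual degrees of freedom). The difference between replicate numbers was removed first. They do not measure the spread of each gene by itself, and the labels do not say from how many mice the libraries came.

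**Figure D2:**
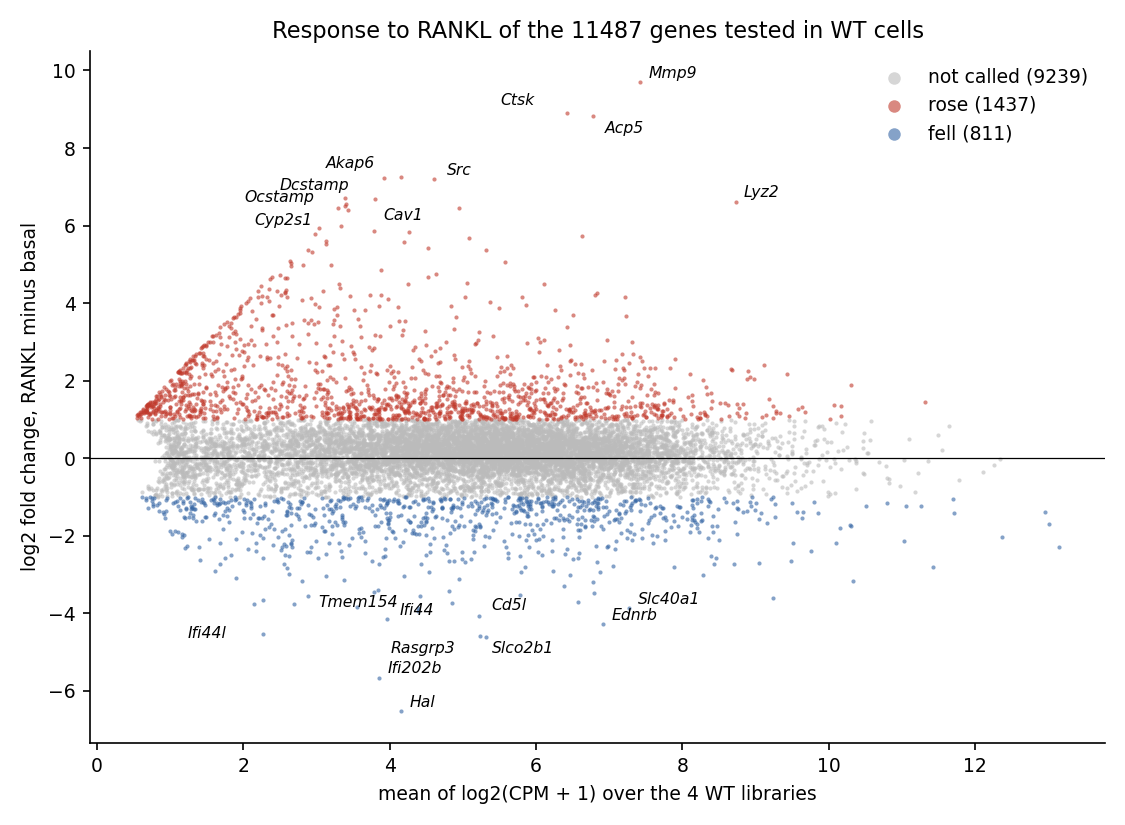
Each point is 1 of the 11487 genes tested, with the mean of log2(CPM + 1) over the 4 WT libraries on the horizontal and the fitted log2 fold change of RANKL minus basal on the vertical axis, with the 1437 risen genes in red and the 811 fallen genes in blue. Mmp9, Ctsk and Acp5 stood above all other genes, and Hal lay lowest.

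The largest rises were those of the secreted enzymes of the osteoclast. Mmp9, matrix metalloproteinase 9 (chromosome 2, 164940780 to 164955850, plus strand, GRCm38 with GENCODE vM21), was at 6.66 and 3.61 CPM in basal cells and at 4943 and 4921 CPM after RANKL. Its log2 change was 9.70 ± 0.07 (SE, n = 2 per condition, limma adjusted p = 4.5e-45). Ctsk, cathepsin K, the collagen-degrading protease of osteoclasts (chromosome 3, 95499256 to 95509362), rose from 3.52 and 2.40 to 1778 and 1962 CPM, a log2 change of 8.90 ± 0.06. Acp5, which encodes the tartrate-resistant acid phosphatase TRAP (chromosome 9, 22126727 to 22135711), rose from 5.08 and 3.37 to 2195 and 2466 CPM, a log2 change of 8.82 ± 0.06. In none of the 3 genes did any basal library come near a RANKL library. Per transcript length, in the RPKM of replicate 1, Mmp9 moved from rank 9468 among all genes to rank 14, Acp5 from rank 8866 to rank 18 and Ctsk from rank 9395 to rank 22.

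The promoter of Acp5 is shown because E-boxes of this kind are bound by MITF and the related TFE factors, whose targets in osteoclasts include this gene. The 250 bases before a RefSeq start of Acp5 (GRCm38.p6, chr9:22130599-22130848, minus strand, written 5′ to 3′; this start lies inside the annotated gene) hold 1 match to TCATGTG or TCACGTG on either strand, in capitals, which begins 90 bases before the start.
Acp5: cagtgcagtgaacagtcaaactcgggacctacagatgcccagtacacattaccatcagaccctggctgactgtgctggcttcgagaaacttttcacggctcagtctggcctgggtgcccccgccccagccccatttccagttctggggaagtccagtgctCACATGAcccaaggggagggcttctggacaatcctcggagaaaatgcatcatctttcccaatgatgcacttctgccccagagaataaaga
Such an E-box was found in 7.96% of the 8871 tested genes with a promoter in the RefSeq table, in 6.20% of the 1065 risen and in 9.32% of the 601 fallen genes among them. AP-1 sites (TGANTCA) were found in 5.55% of all, 8.08% of the risen and 6.82% of the fallen genes. NFAT cores (TTTTCC) were found in 21.7%, 23.4% and 24.3%. These are matches of letters in a window of 250 bases on both strands and no evidence of binding.

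Of the other genes with the largest rises, several act in cell fusion or adhesion. Dcstamp, the transmembrane protein required for fusion of osteoclast precursors, went from 0.306 and 0.160 CPM to 162 and 210.1 CPM, a log2 change of 7.23 ± 0.09. Ocstamp, a second fusion protein, had 0 reads and 1 read in the basal libraries and reached 96.5 and 117 CPM. Src, the tyrosine kinase that organizes the ruffled border and podosomes, rose from 1.19 and 0.842 to 289 and 302 CPM, a log2 change of 7.20 ± 0.07. Akap6, an anchoring protein of protein kinase A, rose from 0.520 and 0.361 to 225 and 214 CPM. Cav1, the main coat protein of caveolae, rose from 0.428 and 0.321 to 146 and 134 CPM. Cyp2s1, a cytochrome P450, had 5 reads and 1 read in basal cells and stood at 106 and 96.9 CPM after RANKL. Lyz2, described above, was among the 10 genes with the largest rises, with a log2 change of 6.62 ± 0.03, and in the RPKM of replicate 1 it had rank 1 of all genes after RANKL and rank 1782 before. The fitted changes of Ocstamp and Cyp2s1 depend on the pseudocount, since the basal cells had so few reads.

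The 10 defining osteoclast markers all rose, with a median log2 change of 6.59 and a summed level of 68.7 and 52.1 CPM in basal cells against 10088 and 10424 CPM in RANKL cells. The weakest of them was Itgb3, the beta-3 chain of the vitronectin receptor, which rose from 14.0 and 12.4 to 58.1 and 59.8 CPM, a log2 change of 2.08 ± 0.06. Calcr, the calcitonin receptor, had 0 reads in both basal libraries and 9.78 and 8.997 CPM after RANKL, at least 88.6-fold higher against a floor of 3 reads per library. Oscar, the collagen receptor of osteoclasts that pairs with an ITAM adaptor, had 2 reads in each basal library and 36.4 and 34.5 CPM after RANKL. These markers overlap the lists of fusion and resorption genes below.

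Among the 12 genes of bone resorption, 7 rose and 1 fell, against 12.5% and 7.06% of all genes. Besides the 3 enzymes, Calcr and the following 3 genes rose. Car2, carbonic anhydrase 2, which supplies protons, had 3 reads and 0 reads in basal cells and 92.1 and 90.1 CPM after RANKL. Mmp14, a membrane-bound collagenase, rose from 2.38 and 2.20 to 269 and 304 CPM. Slc4a2, the anion exchanger that balances acid secretion, rose from 107 and 133 to 269 and 322 CPM, a log2 change of 1.29 ± 0.03. The acid channel and pump genes had small changes. Tcirg1, the a3 subunit of the osteoclast proton pump, was at 636 and 816 CPM in basal and 1143 and 1427 CPM in RANKL cells, a log2 change of 0.83 ± 0.02 that did not reach 2-fold, and Clcn7, the chloride transporter of the ruffled border, had 0.28 ± 0.02. Plekhm1, an adaptor of lysosome traffic, fell from 368 and 379 to 156 and 162 CPM.

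Of 14 tested subunits of the vacuolar proton pump, 2 rose and 1 fell 2-fold, shares near the 12.5% and 7.06% of all genes, and the list median was 0.39. Atp6v1b2 rose from 499 and 591 to 1141 and 1344 CPM and Atp6v1d from 145 and 125 to 309 and 276 CPM, though with TMM factors 1 of the 14 passed 2-fold and with DESeq2 0 did. Atp6v0a1, a subunit that occupies the same position as Tcirg1 in other pumps, fell from 602 and 557 to 160.1 and 149 CPM, a log2 change of -1.90 ± 0.02. Atp6v0d2, the d2 subunit that is also required for fusion and was counted with the fusion genes, rose from 39.0 and 30.0 to 718 and 553 CPM, a log2 change of 4.16 ± 0.03. Its paralog Atp6v0d1 was at 279 and 283 CPM before and 228 and 248 CPM after RANKL.

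Of the 11 tested fusion genes, 5 rose and 1 fell, against 12.5% and 7.06% of all genes. Beyond Dcstamp, Ocstamp and Atp6v0d2, Myo10, an unconventional myosin of cell protrusions, rose from 44.1 and 40.9 to 378 and 344 CPM, and Snx10, a sorting nexin needed for osteoclast function, rose from 102 and 105 to 240.5 and 231 CPM, a rise that fell just short of 2-fold with TMM factors. P2rx7, an ATP-gated channel, fell from 171 and 157 to 75.2 and 73.0 CPM.

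Of the 16 osteoclast transcription factors, 11 rose and none fell, against 12.5% and 7.06% of all genes, with a median log2 change of 1.56. Jdp2, an AP-1 family member, rose most, from 13.1 and 12.02 to 756 and 691 CPM, a log2 change of 5.74 ± 0.03. Fosl2 went from 24.9 and 25.0 to 499.8 and 502 CPM and Fos, the AP-1 subunit on which osteoclast formation depends, from 13.1 and 11.5 to 242 and 229.9 CPM, log2 changes of 4.27 ± 0.03 and 4.15 ± 0.04. Prdm1, which encodes the repressor Blimp1, rose from 11.9 and 9.70 to 179 and 166 CPM. Nfatc1 rose from 104 and 91.9 to 647 and 523 CPM, a log2 change of 2.56 ± 0.03. Myc, Junb, Relb, Fosl1 and Esrra also rose, and Spi1, which encodes PU.1, rose from 208 and 221 to 465 and 476 CPM. With TMM factors 9 of the 16 passed 2-fold, since Spi1 (log2 change 0.94) and Esrra (0.83) then fell short of it. The 5 others did not reach 2-fold, among them Mitf at 0.60 ± 0.03 and Jun at -0.57 ± 0.03.

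Of 10 tested genes that restrain osteoclast formation, 3 fell and 1 rose, against 7.06% and 12.5% of all genes. The falls were Irf8 (188 and 184 to 62.4 and 59.7 CPM), Maf (824 and 666 to 267 and 211 CPM) and Rbpj (314 and 300.0 to 132 and 126 CPM). Rcan1, an inhibitor of calcineurin and itself an NFAT target, rose from 19.2 and 18.9 to 51.1 and 55.3 CPM. The list median was -0.32.

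**Figure D3:**
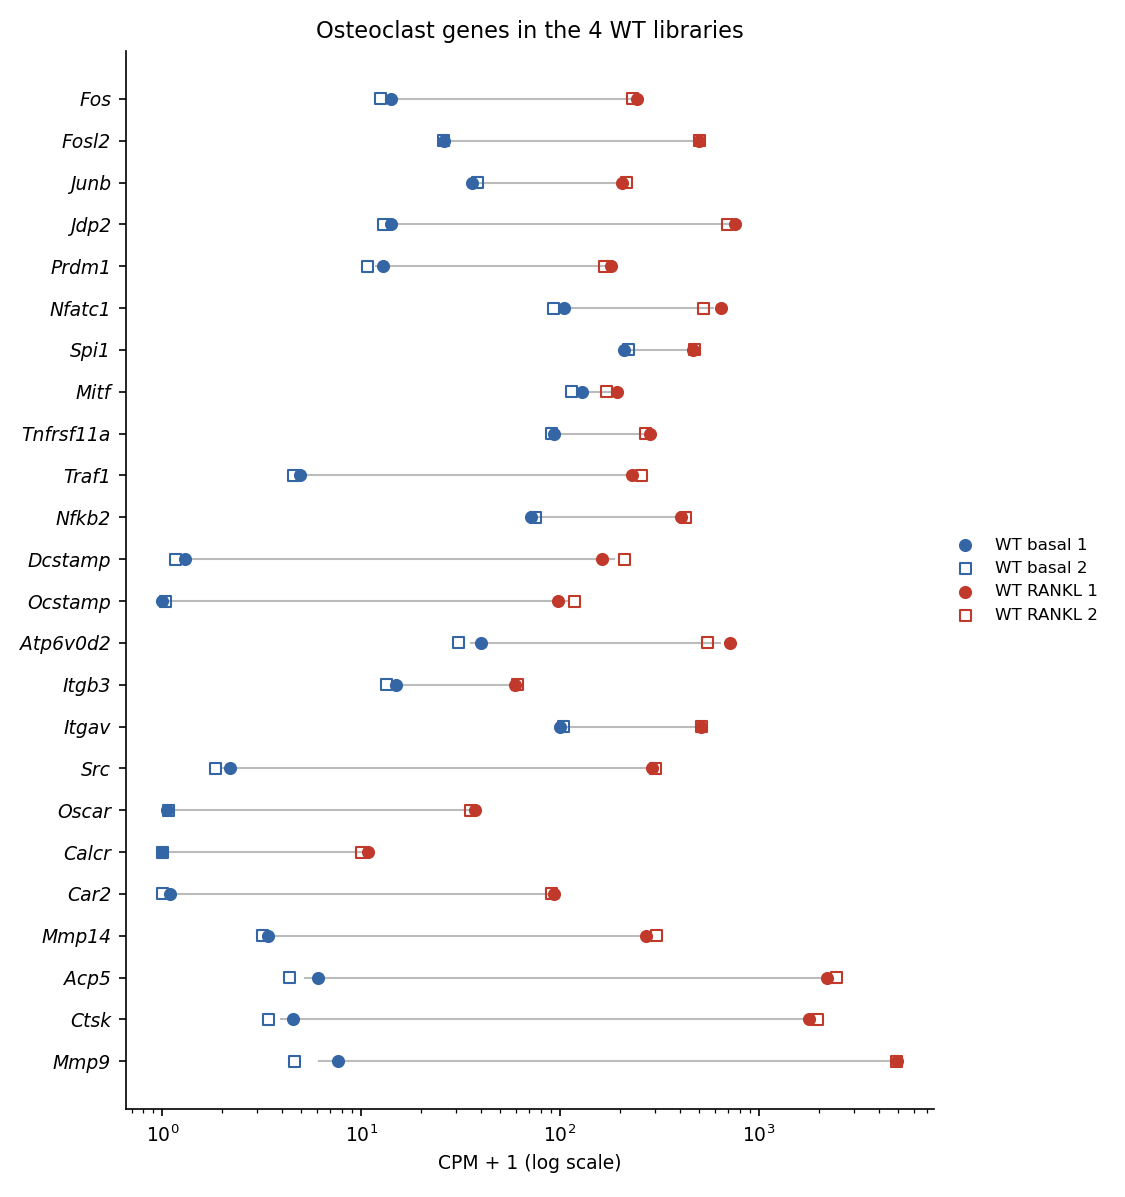
CPM plus 1 on a log scale of 24 osteoclast genes in the 4 WT libraries, with WT basal in blue, WT RANKL in red, replicate 1 as filled circles, replicate 2 as open squares and a grey line between the condition means. Mmp9, Ctsk and Acp5 spanned the widest ranges, for Mmp9 from 6.66 and 3.61 to 4943 and 4921 CPM, while the 2 conditions lay close together for Mitf.

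The receptor and its signaling genes rose in part. Of 21 tested genes of RANK and NF-kB signaling, 9 rose and none fell, against 12.5% and 7.06% of all genes. Tnfrsf11a, which encodes RANK, rose from 92.6 and 90.0 to 281 and 268 CPM, a log2 change of 1.58 ± 0.03. Traf1, an adaptor induced by NF-kB, rose from 3.94 and 3.57 to 229.7 and 254 CPM. Nfkb2, the precursor of the p52 subunit, rose from 70.6 and 74.4 to 405 and 428 CPM, and the feedback inhibitors Nfkbia and Tnfaip3 rose to 286 and 316 CPM and to 91.5 and 94.8 CPM from 68.5 and 73.1 and from 31.2 and 28.8 CPM. Traf6, the adaptor that RANK engages, was at 67.2 and 61.0 CPM before and 89.7 and 81.6 CPM after RANKL, a log2 change of 0.41 ± 0.04 that missed 2-fold. Of 16 ITAM pathway genes, 4 rose and 1 fell, against 12.5% and 7.06% of all genes. The 4 were Oscar, Pira6, Lcp2 and Sirpb1a, of which Pira6 and Sirpb1a belong to families of near-identical genes whose reads could have been split. Trem2, a lipid-sensing receptor of macrophages, fell from 548 and 704 to 168 and 203 CPM, a log2 change of -1.74 ± 0.02. Fcer1g (-0.92) and Tec (-0.94) passed the 2-fold cut as falls with TMM factors, which made 3 falls.

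Single adhesion genes changed in opposite directions. Of 21 podosome and integrin genes, 6 rose and 2 fell, against 12.5% and 7.06% of all genes. The falls were near the share of all genes. The list median of 0.09 lay below the 0.19 of all genes and turned to -0.10 with TMM factors. Itgav, the partner of Itgb3 in the vitronectin receptor, rose from 98.4 and 103 to 510.4 and 512 CPM, Itga2, a collagen receptor chain, had 3 and 4 reads before and 35.8 and 32.1 CPM after RANKL, and the actin regulator Cttn rose from 1.53 and 1.48 to 35.1 and 37.8 CPM. Itgb5, another partner of Itgav, fell from 226 and 256 to 94.1 and 106 CPM, and Vav3, a guanine nucleotide exchange factor, from 101 and 96.5 to 44.2 and 43.2 CPM. Of 7 tested coupling factors, by which osteoclasts act on bone-forming and other cells, 5 rose, against 12.5% of all genes. Among them were Sema4d (183 and 189 to 873 and 925 CPM) and Pdgfb (11.2 and 10.9 to 111 and 116 CPM). Lif, Efnb2 and Sphk1 rose too, but from at most 12 reads in each basal library, and with a filter at a mean of 5 CPM these 3 were not tested, which left 2 risen coupling factors. The other 6 of the 13 listed coupling factors were too low to be tested.

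**Figure D4:**
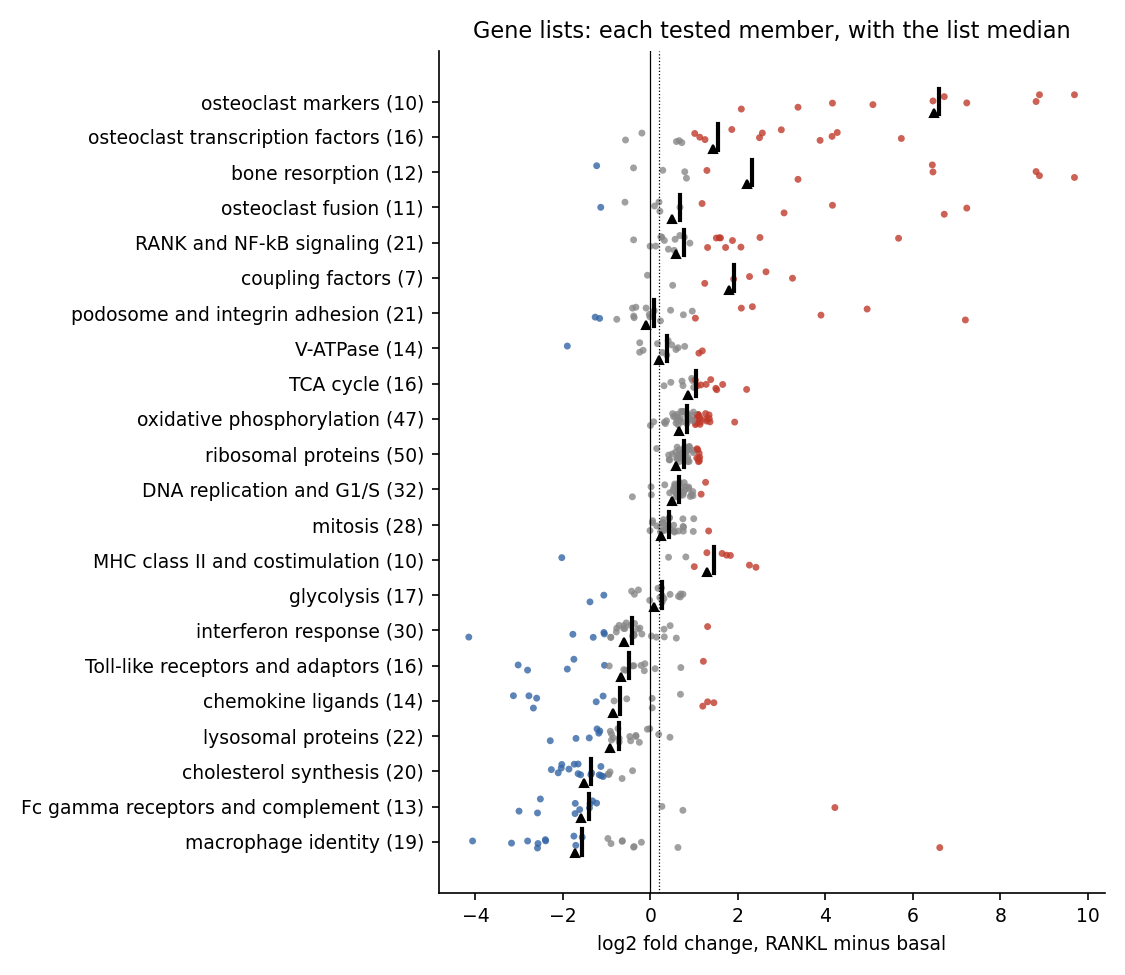
Fitted log2 fold change of each tested member of 22 gene lists, with risen members in red, fallen members in blue, the others in grey, the list median as a black bar, the median with TMM factors as a triangle, 0 as a solid and the median of all genes as a dotted line. Numbers in brackets are tested members. Lists from osteoclast markers to MHC class II lay mostly to the right of 0 and those from interferon response to macrophage identity mostly to the left, while podosome genes straddled it.

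Energy metabolism rose as a broad, small change. Of 47 tested nuclear genes of oxidative phosphorylation, 45 were higher and none lower by the adjusted p, against 54.3% of all genes higher and 29.7% lower, with a median log2 change of 0.84. The 2-fold cut was passed by 17 of them on CPM and by 7 with TMM factors. Cyc1, cytochrome c1 of complex III, changed most, from 46.9 and 68.9 to 182 and 264 CPM, a log2 change of 1.93 ± 0.03, and Atp5b, the catalytic subunit of ATP synthase, went from 634 and 715 to 1607 and 1871 CPM. All 16 genes of the TCA cycle were higher by the adjusted p, with a median of 1.05, and 9 rose 2-fold. Idh3a, a subunit of isocitrate dehydrogenase, rose from 44.7 and 42.5 to 207 and 201 CPM, and Mdh2, the mitochondrial malate dehydrogenase, from 176 and 188 to 557 and 593 CPM. The coactivator of mitochondrial genes Ppargc1b, which encodes PGC-1beta, rose from 4.25 and 3.65 to 54.6 and 49.0 CPM, a log2 change of 3.42 ± 0.08. Its relative Ppargc1a was at most 0.200 CPM in all 4 libraries and was not tested. Glycolysis did not share this rise. Of 17 tested glycolytic genes, 10 were higher and 5 lower by the adjusted p, near the 54.3% and 29.7% of all genes. By the 2-fold cut none rose and 2 fell, against 12.5% and 7.06% of all genes. The falls were Hk3 (377 and 497 to 145 and 189 CPM) and Pfkfb4 (53.9 and 68.3 to 26.7 and 30.4 CPM). The list median was 0.26, near that of all genes.

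All 50 tested ribosomal protein genes were higher by the adjusted p, against 54.3% of all genes, with a median of 0.77, or 0.59 with TMM factors, where 49 of the 50 were still higher. Of these, 8 reached 2-fold, against 12.5% of all genes, and none did with TMM factors. The 53 listed genes took 0.922% and 1.01% of CPM in basal and 1.62% and 1.81% in RANKL cells. Of 32 genes of DNA replication, 29 were higher by the adjusted p, against 54.3% of all genes, with a median of 0.67, and 2 rose 2-fold, a share below the 12.5% of all genes, Cdt1 (28.6 and 33.7 to 73.1 and 78.6 CPM) and Mcm7 (71.3 and 76.6 to 160.3 and 173 CPM). Of 28 mitotic genes, 25 were higher by the adjusted p, against 54.3% of all genes, with a median of 0.43. Only 1 of them, Bub1b, rose 2-fold, from 82.6 and 84.2 to 209.6 and 213 CPM, a share below the 12.5% of all genes. Without basal replicate 1 or RANKL replicate 1, 4 replication genes rose, and without either of these or RANKL replicate 2, 2 mitotic genes did. Both lists kept medians above 0 with TMM factors and quantile normalization, and Mcm7 missed 2-fold with TMM factors.

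The macrophage programme fell. Of 19 tested macrophage identity genes, 10 fell and 1, Lyz2, rose, against 7.06% and 12.5% of all genes, and the list median was -1.56. Mrc1, the mannose receptor, fell from 4003 and 3734 to 441 and 413 CPM, a log2 change of -3.18 ± 0.02. Stab1, a scavenger receptor, fell from 6537 and 8057 to 931 and 1153 CPM, and Cd36, which takes up oxidized lipids, from 2002 and 1954 to 380.2 and 371 CPM. Siglec1, a sialic acid receptor, fell from 855 and 863 to 144 and 144 CPM, Mertk, a receptor for dying cells, from 126 and 119 to 38.5 and 35.5 CPM, and Cd5l, a secreted scavenger protein, from 148 and 155 to 8.30 and 7.92 CPM. Csf1r, the receptor of M-CSF that precursors and osteoclasts both need, was at 2647 and 2832 CPM before and 2032 and 2169 CPM after RANKL, a log2 change of -0.38 ± 0.01 that missed 2-fold.

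Receptors for antibody, complement and microbes followed. Of 13 Fc gamma receptor and complement genes, 10 fell and 1 rose, against 7.06% and 12.5% of all genes. Fcgr2b, the inhibitory Fc receptor, fell from 279 and 221 to 31.0 and 29.3 CPM and the activating receptors Fcgr1 and Fcgr3 from 116 and 123 to 18.5 and 19.8 CPM and from 837 and 763 to 138 and 139.7 CPM. The C1q chains C1qa, C1qb and C1qc fell by 1.32, 1.72 and 1.38 on the log2 scale. C3, the central complement protein, moved the other way, from 26.3 and 23.4 to 506 and 456 CPM, a log2 change of 4.22 ± 0.03. Of 16 Toll-like receptor and adaptor genes, 5 fell and 1 rose, against the same shares. The endosomal receptors split: Tlr7 fell from 924 and 845 to 114 and 102 CPM, Tlr8 from 685 and 571 to 94.7 and 82.5 CPM and Tlr13 from 679 and 643 to 178 and 175 CPM, all 3 of them sensors of RNA, whereas Tlr9, which senses DNA, rose from 22.1 and 17.4 to 50.7 and 43.1 CPM. That rise of Tlr9 was under 2-fold after quantile normalization. The lipopolysaccharide receptor genes Tlr4 and Cd14 fell by 1.05 and 1.75 on the log2 scale, Tlr4 by less than 2-fold without RANKL replicate 2.

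Chemokine genes changed both ways. Of 14 tested ligands, 6 fell and 3 rose, against 7.06% and 12.5% of all genes. Ccl3, Ccl4, Ccl6 and Pf4 fell by 2.67, 3.13, 2.78 and 2.60 on the log2 scale, as in Ccl6 from 347 and 345 to 48.4 and 50.8 CPM. Cxcl16 (47.8 and 44.6 to 126 and 130.5 CPM), Cxcl10 and Ccl22 rose, the last from 9 and 4 reads. Ccr1, a receptor through which osteoclast precursors migrate, rose from 22.5 and 20.2 to 189 and 190.4 CPM, and the fractalkine receptor Cx3cr1 rose from 17.7 and 16.0 to 105 and 112 CPM, while the anaphylatoxin receptors C5ar1 and C3ar1 fell from 532 and 475 to 161 and 144 CPM and from 1336 and 1125 to 508 and 427 CPM. Antigen presentation by MHC class II went up: of 10 tested genes 7 rose and 1 fell, against 12.5% and 7.06% of all genes, with a median of 1.47. The transactivator Ciita rose from 2.90 and 2.85 to 18.4 and 20.9 CPM and the invariant chain Cd74 from 64.8 and 67.4 to 318 and 325 CPM. H2-Aa, H2-Ab1 and H2-Eb1, whose reads could have been split between similar genes, rose by 1.74, 1.83 and 1.64 on the log2 scale. The costimulatory receptor Cd40 fell from 21.8 and 25.5 to 4.31 and 5.87 CPM. Beside this, 2 of the 8 dendritic cell markers were high enough to be tested and both rose, and the 8 markers summed to 7.46 and 8.10 CPM in basal and 22.5 and 23.2 CPM in RANKL cells. Their part in the class II rise was not tested.

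Interferon response genes were lower in small steps. Of 30 tested, 23 were lower and 6 higher by the adjusted p, against 29.7% and 54.3% of all genes, with a median of -0.43. By the 2-fold cut 5 fell and 1 rose, against 7.06% and 12.5% of all genes. The count of falls was 7 with TMM factors and 9 with quantile normalization, edgeR or DESeq2. The 5 were Ifi44 (66.4 and 62.9 to 2.83 and 2.56 CPM), Ifit2 (69.6 and 62.5 to 20.3 and 17.1 CPM), Stat2 (183 and 177 to 71.3 and 72.7 CPM), Oasl2 (141 and 118 to 63.8 and 58.6 CPM) and Bst2 (107 and 171 to 50.0 and 83.5 CPM). Stat2 is part of the complex that drives the others, and the rising gene was the chemokine Cxcl10, at 5.96 and 6.69 CPM before and 15.9 and 18.5 CPM after RANKL. In Bst2 the replicates lay further apart than in the rest, and without RANKL replicate 1 its log2 change was -0.99, short of 2-fold. Ifi44 is a neighbour of Ifi44l on chromosome 3, which was at 0 after RANKL. In Mir182ΔM/ΔM cells Ifi44 went the other way, from 12.7 and 11.4 to 226 and 206 CPM, and it was at most 1.31 CPM in Control and Mir182mTg cells, so the part of mouse origin in its fall was not tested.

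The promoters of Stat2 and Bst2 are shown because both hold the interferon response element, TTTC and TTTC with 2 bases of any kind between them, on either strand, in capitals. The window of Stat2 is chr10:128270248-128270497 (plus strand) and that of Bst2 is chr8:71537473-71537722 (minus strand), each the 250 bases before a RefSeq start in GRCm38.p6, 5′ to 3′. In Bst2 a pair of matches overlaps, which gives the longer run of capitals.
Stat2: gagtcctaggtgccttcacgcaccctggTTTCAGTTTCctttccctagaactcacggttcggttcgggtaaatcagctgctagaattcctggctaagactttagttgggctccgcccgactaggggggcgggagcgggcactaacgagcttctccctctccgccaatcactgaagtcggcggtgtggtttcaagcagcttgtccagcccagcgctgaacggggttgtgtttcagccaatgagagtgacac
Bst2: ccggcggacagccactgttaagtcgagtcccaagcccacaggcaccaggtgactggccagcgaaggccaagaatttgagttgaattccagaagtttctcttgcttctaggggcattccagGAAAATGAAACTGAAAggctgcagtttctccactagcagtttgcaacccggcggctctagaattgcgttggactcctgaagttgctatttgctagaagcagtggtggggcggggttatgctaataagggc
The element was found in 10 of the 21 interferon response genes with a promoter in the table, 47.6%, against 3.38% of all 8871 tested genes with one, 2.91% of the risen and 4.99% of the fallen genes.

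Cholesterol synthesis genes were lower throughout. All 20 tested genes of the pathway and its regulators were lower by the adjusted p, against 29.7% of all genes, and 15 fell 2-fold, with a median of -1.35. With TMM factors 18 fell 2-fold. Hmgcs1, HMG-CoA synthase at the head of the pathway, fell from 481 and 419 to 109 and 98.2 CPM, a log2 change of -2.11 ± 0.03 (limma adjusted p = 3.8e-38). Insig1, a sterol-sensing regulator and itself a target of the transcription factor SREBP-2, fell most, from 237 and 259 to 46.1 and 55.7 CPM, a log2 change of -2.26 ± 0.03. Fdps, farnesyl diphosphate synthase, the enzyme that nitrogen-containing bisphosphonates inhibit in osteoclasts, fell from 149 and 186 to 35.0 and 46.0 CPM. Cyp51 fell from 204 and 184 to 50.0 and 43.2 CPM. Of 8 tested genes of cholesterol efflux, 2 rose and 3 fell, against 12.5% and 7.06% of all genes, with a median of -0.18. Abcg1 rose from 68.2 and 68.1 to 300.4 and 275 CPM. Nr1h3, which encodes the oxysterol receptor LXR-alpha, rose from 3.76 and 3.77 to 25.3 and 28.5 CPM. Apoe, the apolipoprotein that macrophages secrete, fell from 1791 and 1790 to 282 and 286 CPM, and Mylip and Scarb1 fell as well.

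The promoter of Hmgcs1 is shown for its sterol response element, a match to TCACNCCAC on either strand, in capitals, in the 250 bases before a RefSeq start (GRCm38.p6, chr13:119690101-119690350, plus strand), beginning 137 bases before that start.
Hmgcs1: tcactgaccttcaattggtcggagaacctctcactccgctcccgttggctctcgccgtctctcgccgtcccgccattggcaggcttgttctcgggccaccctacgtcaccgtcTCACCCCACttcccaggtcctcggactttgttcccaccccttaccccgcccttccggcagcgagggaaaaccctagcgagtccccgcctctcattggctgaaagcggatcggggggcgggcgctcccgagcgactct
Of the 14 cholesterol synthesis genes with a promoter in the table, 1 held this motif, Hmgcs1 itself, or 7.14%, against 1.19% of all.

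Several of the most abundant transcripts of the basal cells were lysosomal. Ctsd, cathepsin D, had rank 1 of all genes in the RPKM of basal replicate 1 and rank 6 after RANKL. Of 22 lysosomal genes none rose and 6 fell, against 12.5% and 7.06% of all genes, with a median of -0.73. With TMM factors 10 fell. Ctsb, cathepsin B, fell from 19860 and 20195 to 4017 and 4174 CPM, a log2 change of -2.29 ± 0.01, Ctsd from 14752 and 15151 to 4503 and 4695 CPM, and Psap, the precursor of the saposins, from 12135 and 13730 to 4594 and 5224 CPM, log2 changes that for Ctsd shrank to -0.53 and for Psap turned to 0.10 after quantile normalization, which sets the most abundant genes of all libraries to equal values. Lamp1, Lamp2 and Lipa fell by 1.22, 1.18 and 1.16 on the log2 scale. The 22 genes summed to 63947 and 66175 CPM before and 24340 and 25314 CPM after RANKL. Slc40a1, which encodes the iron exporter ferroportin, fell from 562 and 621 to 38.2 and 40.7 CPM, a log2 change of -3.87 ± 0.03. Hmox1, heme oxygenase 1, fell from 1390 and 1317 to 206 and 209.9 CPM, and the ferritin gene Fth1 from 11259 and 10031 to 2777 and 2466 CPM. Of 12 iron genes, 4 fell and 2 rose, against 7.06% and 12.5% of all genes, so that the rises were near the share of all genes. The risen genes were Steap4, with 4 and 0 reads in basal cells, and Cp, from 2.54 and 1.92 to 10.97 and 10.80 CPM.

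Redox genes changed both ways. Of 19 tested, 4 fell and 4 rose, against 7.06% and 12.5% of all genes. The falls included Cat, catalase (1112 and 969.6 to 394 and 339 CPM), and Prdx1 (1217 and 1518 to 420.1 and 509.8 CPM). The rises were Ncf4, a subunit of the NADPH oxidase (79.8 and 94.7 to 414 and 469 CPM), Sod1, Gpx1 and Rac2, of which Gpx1 and Rac2 missed 2-fold with TMM factors. Of 15 tested genes of the BCL2 family, 3 rose and 2 fell, against 12.5% and 7.06% of all genes, and the list median of -0.01 was -0.20 with TMM factors. The anti-apoptotic Bcl2l1 and Bcl2 fell from 154 and 154 to 36.6 and 33.001 CPM and from 26.9 and 24.1 to 5.55 and 4.53 CPM. The pro-apoptotic Bmf, Pmaip1 and Bcl2l11 rose, the last, known as Bim, from 79.9 and 81.9 to 169.6 and 169.8 CPM, a rise that missed 2-fold with TMM factors. Of 11 chromatin genes, 3 rose and 2 fell, against 12.5% and 7.06% of all genes, with a median of 0.31. Dnmt3a, a DNA methyltransferase that osteoclasts require, rose from 229 and 235 to 922 and 984 CPM, a log2 change of 2.03 ± 0.02, with Kdm6b and Uhrf1. The deacetylase genes Hdac9 and Hdac7 fell from 46.4 and 41.5 to 12.3 and 11.3 CPM and from 23.8 and 24.5 to 11.2 and 10.8 CPM.

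**Figure D5:**
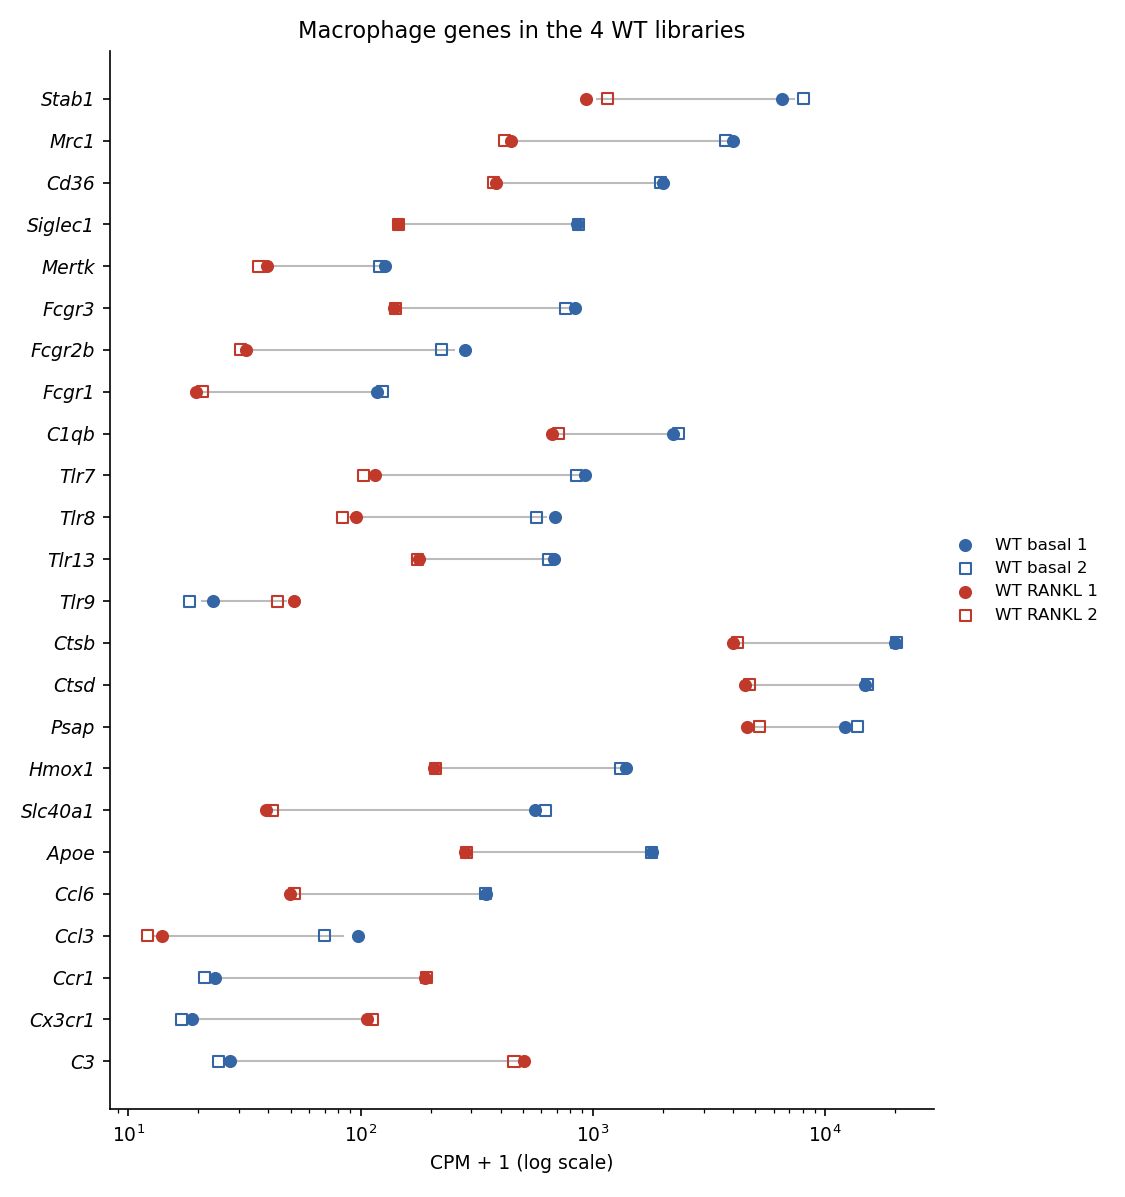
CPM plus 1 on a log scale of 24 genes of the macrophage programme in the 4 WT libraries, drawn as for the osteoclast genes. On the CPM scale drawn here, every gene from Stab1 to Ccl3 except Tlr9 lay lower in both RANKL libraries (Psap did not after quantile normalization), and Tlr9, Ccr1, Cx3cr1 and C3 lay higher.

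Several of the largest falls were in genes outside these lists. Hal, histidine ammonia lyase (chromosome 10, 93488768 to 93519304), fell most, from 169.6 and 172 to 0.758 and 0.972 CPM, a log2 change of -6.53 ± 0.08 (limma adjusted p = 1.0e-38). Ednrb, the endothelin receptor type B (chromosome 14, 103814625 to 103844402), fell from 562 and 504 to 28.9 and 24.4 CPM. Rasgrp3, an activator of Ras, fell from 209.9 and 183 to 7.98 and 6.33 CPM, Slco2b1, an organic anion transporter, from 180.1 and 186 to 6.86 and 6.48 CPM, and Tmem154 from 83.1 and 79.6 to 4.15 and 4.50 CPM. Ifi44l was at least 197-fold lower after RANKL against a floor of 3 reads per library, and Ifi202b and Ifi44 were among the 10 largest falls too. Of the 10 largest falls, 3 were thus interferon-inducible genes whose levels in other conditions of the series are given above.

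The response was set beside the same contrast in Mir182ΔM/ΔM cells, which rests on 4 other libraries. Over all genes tested, the difference between the responses passed the limma adjusted p in 59.1%. On the CPM scale the WT response was the more positive one in 4985 of these and the more negative one in 1802. The median log2 change of all genes was 0.19 in WT and 0.05 in Mir182ΔM/ΔM cells. This split and those below are to be read against that offset. With TMM factors the difference passed in 5988 genes, against 6787 on CPM, and its split by direction was not counted. Of the 1437 genes that rose in WT cells, 81.6% differed between the responses, with the WT response more positive in 1050 and more negative in 122 of them. The median log2 change of the 1437 genes was 1.48 in WT and 0.94 in Mir182ΔM/ΔM cells, where 664 of them rose 2-fold and 1 fell. Of the 811 genes that fell in WT cells, 70.2% differed between the responses, with the WT response more negative in 370 and more positive in 199 of them, 540 also fell 2-fold in Mir182ΔM/ΔM cells and 7 rose, with medians of -1.43 and -1.35. Because these genes were picked for a large change in WT cells, a smaller median in the other genotype is given as a description. Calcr had 0 reads in both basal and 9.07 and 9.68 CPM in both RANKL libraries of Mir182ΔM/ΔM cells, and the difference between the responses was 0.00 ± 0.17 (SE), which did not pass the limma test (adjusted p = 0.99). Fos (log2 change 3.90 in Mir182ΔM/ΔM cells), Junb (2.62), Nfkb2 (2.57) and Traf1 (6.03) also rose in Mir182ΔM/ΔM cells, while Nfatc1 had 0.18 and Prdm1 had 1.60 against 2.56 and 3.88 in WT cells, differences of 2.38 ± 0.05 and 2.28 ± 0.09. Among the 199 genes whose WT fall was the smaller one, the log2 changes of Mrc1 (-3.31), Slc40a1 (-4.32), Ednrb (-4.98) and Insig1 (-2.45) were more negative in Mir182ΔM/ΔM than in WT cells, with limma adjusted p of the difference of 0.0068, 1.5e-05, 9.2e-10 and 0.014. The difference was 0.70 for Ednrb and 0.44 for Slc40a1. For Mrc1 and Insig1 it lay near the offset between the medians of all genes, 0.19 and 0.05, and cannot be told apart from it.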

How the data were processed

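RNA was selected for poly-A and sequenced, and per the labels the reads were aligned to mm10 with TopHat (replicate 1) or HISAT2 (replicate 2). Genes were counted with HTSeq, and the authors deposited CPM made with edgeR for the WT and Mir182ΔM/ΔM libraries, counts for the Control and Mir182mTg libraries and, for replicate 1, RPKM. The CPM carried no TMM factor and were whole multiples of 1 read (100% of values within 0.01 read). Of 24421 genes, 27 had names turned into dates and were left out, and 23350 matched GENCODE vM21. The read floors cover counting error only.

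Genes that reached 1 CPM in 2 or more WT libraries were fitted on log2(CPM + 1) with limma 3.58.1 in R 4.3.3 (trended empirical Bayes, two-sided, 1 residual and 32.5 prior degrees of freedom), with the replicate number as a batch. Over 6 pairs of conditions and 11673 genes the deviations of libraries with the same number correlated by 0.693 to 0.758, so the numbers paired the libraries. Replicate numbers differ in aligner and, per the labels, in starting molecule. The labels name polyA RNA for replicate 1 and total RNA for replicate 2, although both protocols describe poly-A selection. Replicates differed by more than sampling noise. The response in Mir182ΔM/ΔM cells came from an interaction term over 8 libraries. Alternatives were no block, TMM factors, quantile normalization, other filters and pseudocounts, leaving out each library, and edgeR 4.0.16 and DESeq2 1.42.0 on the recovered reads. edgeR without TMM was added after seeing the data. The scripts were tested on simulated data.

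Named genes were the 10 largest rises and falls with at least 20 CPM in the higher condition, and list members with the largest changes or against the rest of their list. Further list members, among them those short of 2-fold, were chosen after their values were seen. Members and lists were chosen with earlier results of these data known. Promoters were read from RefSeq.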

Additional observations from a re-analysis of the deposited data

Results flagged for a closer look

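Each of the 20 genes with the largest rises and falls in WT cells had a response that differed between WT and Mir182ΔM/ΔM cells by the limma interaction test over 8 libraries, against 59.1% of all genes tested. The genes were picked for their WT response, so a larger change in WT cells is partly fixed by that choice.

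Among the rises, the WT minus Mir182ΔM/ΔM difference of the log2 change was 1.58 for Mmp9, 2.28 for Ctsk, 2.19 for Acp5, 1.77 for Src, 2.60 for Dcstamp and 2.31 for Ocstamp. It was 3.33 for Akap6 and 4.04 for Cyp2s1. Cav1 differed the other way, by -0.86, and rose more in Mir182ΔM/ΔM cells. Lyz2 differed by 7.10, and its level in the other libraries is given in the report.

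Among the falls, the difference was -3.55 for Hal, -2.95 for Cd5l and -1.75 for Rasgrp3, which fell more in WT cells. It was 0.996 for Slco2b1, 0.70 for Ednrb, 0.55 for Tmem154 and 0.44 for Slc40a1, which fell more in Mir182ΔM/ΔM cells. The interferon-inducible genes Ifi202b, Ifi44l and Ifi44 differed by -6.35, -4.92 and -8.21. The part of mouse origin in these 3 differences was not tested.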

How the results depend on the processing

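Of 152 named genes that rose or fell, 133 kept their direction and stayed past both thresholds under each of the 14 alternatives that tested them, the 20 with the largest changes among them. With the filter at a mean of 5 CPM, 7 named genes were not tested, Calcr, Ccl22, Efnb2, Fosl1, Lif, Sirpb1a and Sphk1. The remaining 19 of the 152 missed 2-fold under some alternative: Atp6v1b2, Atp6v1d, Bcl2l11, Bst2, Ccl22, Ctsd, Esrra, Fosl1, Gpx1, Mcm7, Psap, Rac2, Sirpb1a, Snx10, Sphk1, Spi1, Tlr4, Tlr9 and Uhrf1. Only Psap turned its direction, to a log2 change of 0.10 with quantile normalization, which sets the most abundant genes of all libraries to equal values. Of the 1437 risen and 811 fallen genes, 956 and 719 were called in all of the 13 settings compared, which left out the filter at a mean of 5 CPM (1070 risen and 675 fallen genes). The number of fallen genes was 1293 with edgeR and TMM factors and 1272 with DESeq2, and 1082 with limma and TMM factors, against 1124 risen genes. Leaving out 1 library at a time gave 1430 to 1471 risen and 810 to 821 fallen genes. Without the replicate block 1436 genes rose and 810 fell, and the number of genes whose response differed between genotypes was 2791 in place of 6787. edgeR without TMM factors, added after seeing the data, gave 1668 risen and 984 fallen genes. Medians of lists with members of few reads moved with the pseudocount, and depth limits the fold change of genes with a few reads in basal cells.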

Other observations

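Genes near Lyz2, Ifi202b and Ifi44l were counted within 2 Mb on each side. Of 29 tested neighbours of Ifi202b, 10 rose and 6 fell, against 12.5% and 7.06% of all genes, among them the family members Ifi203 and Ifi205. Of 20 tested neighbours of Lyz2, 3 rose and 1 fell, and of 6 tested neighbours of Ifi44l, 1 fell, which was Ifi44.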
